A study of Mus musculus with 10 samples.

Results

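Collagens are the main fibre-forming proteins of the extracellular matrix, and the collagen gene family was taken as every gene whose platform symbol was Col, digits, a and digits. The rule gave 44 genes of the 19938 genes compared. By the structure of their proteins 11 were fibrillar, 8 belonged to basement membranes and 25 were of other types. Pancreas RNA was measured in 10 mouse samples of mixed strain background on Affymetrix Mouse Gene 1.0 ST arrays, with 5 control and 5 DKO arrays. The DKO group had the genotype PDX1Cre,Mst1-/-,Mst2L/L. It lacks the Hippo kinase MST1 in every cell and MST2 where Cre recombinase, driven by the promoter of the pancreatic progenitor gene Pdx1, had acted. Fibroblasts, pancreatic stellate cells and endothelial cells, which are not of the Pdx1 lineage, would therefore be without MST1 alone. For the controls the labels give no genotype beyond that word, and for neither group an age or a sex. Nothing in them says whether each array stands for its own mouse, so the spread behind the p-values may in part be technical.

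A collagen molecule is a triple helix of 3 chains whose sequence repeats glycine at regular steps. Types I, III and V form the banded fibrils of interstitial tissue, and type VI makes beaded filaments between them. Type IV forms the sheet of the basement membrane under epithelia and around vessels. In the pancreas stellate cells and fibroblasts are the main source of fibrillar collagen, and their activation produces the scar of chronic pancreatitis and of pancreatic cancer. MST1 and MST2 restrain the coactivators YAP and TAZ, which act through TEAD transcription factors and take part in matrix production in several tissues. Levels below are log2 intensities, changes are DKO minus control on that scale, and a gene was called when its adjusted p was under 0.05 by limma's moderated test, adjusted after Benjamini and Hochberg over every gene compared. In bulk tissue, fewer cells of a type and less RNA per cell cannot be told apart.

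The median level of an array, over all transcript clusters, was 7.12 to 7.15, and no pair of arrays had a correlation across genes under 0.976. Stk4, the gene of MST1, measured 5.01 to 5.23 in control and 5.07 to 5.21 in DKO (adjusted p = 0.884). Sex-linked genes stood at 3.99 to 5.75 where they are not expressed, a range that holds the Stk4 values, so Stk4 could not check the labels. The mean of 6 hepatocyte markers was 12.11 in DKO replicate 1 and 7.19 to 8.51 in the other arrays. All 6 acinar markers lay at or above the 81.5 percentile of all genes, all 10 listed fibroblast and stellate cell markers at or above the 53.0 percentile, and all 6 endothelial markers at or above the 72.4 percentile.

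The sequences before the starts of 4 collagen genes are given first, because the results turn on these genes. Col4a5 was the one collagen called, Col4a6 is its head-to-head neighbour on the X chromosome, and Col1a2 and Col3a1 encode interstitial fibril chains. They are from RefSeq on GRCm38.p6, 5′ to 3′ on the strand of the gene, and end before the first annotated base of the gene. Capitals mark the TEAD core motif GGAATG and the CCAAT box (letters CCAAT), each on either strand. The stretches lie at chrX:141475169-141475369 (plus strand), chrX:141474096-141474326 (minus), chr6:4505368-4505617 (plus) and chr1:45311288-45311537 (plus), in the order shown.
Col4a5: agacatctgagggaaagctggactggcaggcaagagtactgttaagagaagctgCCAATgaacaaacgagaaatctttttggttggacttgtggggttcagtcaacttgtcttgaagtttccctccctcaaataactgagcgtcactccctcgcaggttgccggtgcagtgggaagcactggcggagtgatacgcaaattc
Col4a6: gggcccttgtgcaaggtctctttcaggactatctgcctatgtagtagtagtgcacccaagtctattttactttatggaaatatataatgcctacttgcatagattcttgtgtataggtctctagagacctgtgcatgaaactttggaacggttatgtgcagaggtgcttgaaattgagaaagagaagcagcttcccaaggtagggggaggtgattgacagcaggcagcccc
Col1a2: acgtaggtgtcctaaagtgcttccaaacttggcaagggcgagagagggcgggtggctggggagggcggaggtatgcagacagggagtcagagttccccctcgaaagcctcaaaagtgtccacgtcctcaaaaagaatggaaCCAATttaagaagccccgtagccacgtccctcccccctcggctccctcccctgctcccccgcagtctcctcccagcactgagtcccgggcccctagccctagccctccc
Col3a1: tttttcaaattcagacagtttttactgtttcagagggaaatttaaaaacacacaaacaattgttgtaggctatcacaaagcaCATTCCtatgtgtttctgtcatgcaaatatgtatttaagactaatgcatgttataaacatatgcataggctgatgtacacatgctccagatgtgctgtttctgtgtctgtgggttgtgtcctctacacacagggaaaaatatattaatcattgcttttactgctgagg

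The Col4a5 and Col1a2 stretches each held a CCAAT box, the Col3a1 stretch held the TEAD motif on the other strand, and the Col4a6 stretch held neither. Promoter entries were found for 35 of the 44 collagens, 38 entries in all. In the first 250 bases of each entry, 4 of the 38 held GGAATG (10.5%), against 12.6% of all 32851 promoter entries. Those bases were not cut at the annotated start of the gene, as the printed stretches of Col4a5 (201 bases) and Col4a6 (231 bases) were. The CCAAT box was in 13 of 38 (34.2%), against 33.8% of all entries. The motif shares of the family thus lay near those of all promoters. The 4 entries with GGAATG belonged to Col3a1, Col6a2, Col18a1 and Col20a1, of which no gene was called.

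Across the family, 1 of 44 collagens was higher in DKO and none was lower. Over all genes 2.44% were called, 2.08% higher and 0.366% lower, so the share of the collagens called, 2.27%, was near the background. The gene was Col4a5, and the limits of that call are given with its values. At an unadjusted p of 0.05 in the same limma fit 2 collagens were higher and 4 lower, against 9.18% and 5.66% of all genes. The changes ran from -0.20 for Col7a1 to 0.31 for Col12a1. No collagen had a change of more than 0.5 on the log2 scale; of all genes 413 (2.07%) did, so none in a family of 44 is near the background. The 95% interval of the change lay inside -0.5 to 0.5, a fold of 1.41 either way, for 43 of the 44, and the remaining one was Col12a1 with an upper bound of 0.50 after rounding. The median change was -0.07 over all collagens, against -0.006 over all genes tested. Among fibrillar, basement membrane and other collagens it was -0.03, -0.03 and -0.08, in that order, and 31 of the 44 (70.5%) had a change below 0. Over all genes this share was 52.4%. Over genes below the median level it was 65.8%, where the 21 collagens below that level had 81.0%. Over genes at or above the median level it was 39.0%, where the 23 collagens had 60.9%.

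**Figure D1:**
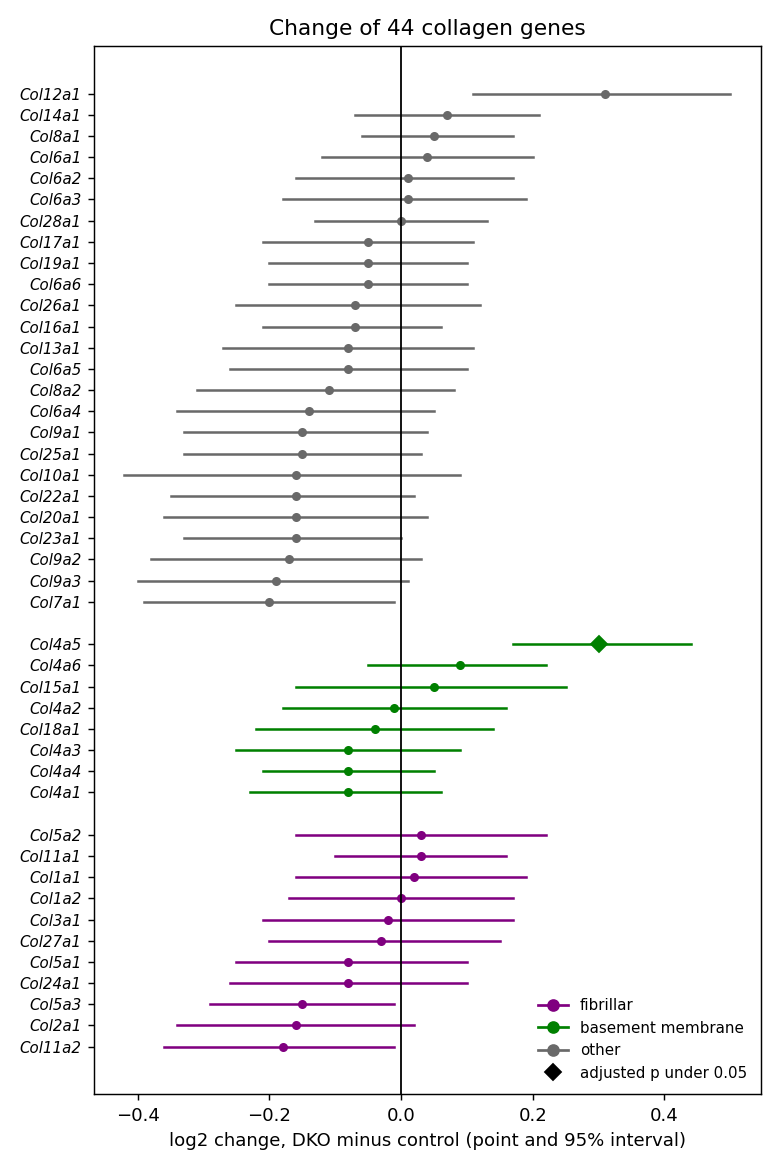
Log2 change, DKO minus control, of each of the 44 collagen genes (horizontal axis), with its 95% interval from the limma fit on 5 control and 5 DKO arrays, in 3 classes by colour; a diamond marks the gene with an adjusted p under 0.05. Points run from -0.20 (Col7a1) to 0.31 (Col12a1), and Col4a5 (0.30) is the one diamond.

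Fibrillar collagens of the interstitium showed no called change. Col1a1 encodes the α1 chain of type I collagen, the most abundant protein of fibrous tissue. In order of replicate number, the 5 controls measured 11.31, 11.54, 11.19, 11.20 and 11.54, and the 5 DKO arrays 11.32, 11.42, 11.43, 11.34 and 11.37. All 5 DKO arrays lay inside the control range, and the change was 0.02 ± 0.08 (SE, n = 5 each; 95% interval -0.16 to 0.19; adjusted p = 0.938). Col1a2, its partner in the type I trimer, read 10.70, 10.90, 10.60, 10.57 and 10.93 in control and 10.66, 10.78, 10.81, 10.70 and 10.75 in DKO. The DKO values again lay within those of control, with a change of 0.00 (-0.17 to 0.17; adjusted p = 0.997). Col3a1, the single chain of type III collagen, read 10.93, 11.08, 10.84, 10.68 and 11.14 in control and 10.77, 10.88, 10.99, 10.96 and 10.95 in DKO. Its change was -0.02 (-0.21 to 0.17; adjusted p = 0.928), and its DKO values too fell between the lowest and highest control. Over these 3 genes the intervals reached no lower than -0.21 and no higher than 0.19, which bounds a rise at 1.14-fold and a fall at 1.16-fold.

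Type V collagen sits inside type I fibrils and sets their diameter. Col5a1 read 8.52, 8.69, 8.54, 8.26 and 8.65 in control and 8.40, 8.46, 8.59, 8.43 and 8.40 in DKO, a change of -0.08 (-0.25 to 0.10; adjusted p = 0.678). Col5a2 read 8.22, 8.24, 8.01, 7.99 and 8.38 in control and 7.98, 8.33, 8.21, 8.25 and 8.22 in DKO, a change of 0.03 (-0.16 to 0.22; adjusted p = 0.896). The groups overlapped for both chains. Col5a3, the remaining chain of type V, read 7.63, 7.78, 7.72, 7.57 and 7.77 in control and 7.55, 7.64, 7.64, 7.51 and 7.40 in DKO. All 5 DKO values were below the control mean but overlapped with control, and the change of -0.15 did not pass (adjusted p = 0.308).

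Type VI collagen, which links cells to the fibrils, had no called change in these 3 chains. Col6a1 read 9.84, 9.89, 9.72, 9.65 and 10.01 in control and 9.71, 9.83, 9.92, 9.93 and 9.91 in DKO (change 0.04, adjusted p = 0.831). Col6a2 read 9.99, 10.11, 9.87, 9.77 and 10.15 in control and 9.87, 9.95, 10.04, 10.04 and 10.02 in DKO (0.01, adjusted p = 0.981). Col6a3, the long chain of the heterotrimer, read 9.42, 9.46, 9.22, 9.33 and 9.59 in control and 9.24, 9.64, 9.37, 9.42 and 9.37 in DKO (0.01, adjusted p = 0.984). Col14a1, a fibril-associated chain made by fibroblasts, read 10.50, 10.62, 10.34, 10.49 and 10.67 in control and 10.55, 10.58, 10.68, 10.57 and 10.57 in DKO. All 5 DKO values were above its control mean, yet the change was 0.07 (-0.07 to 0.21; adjusted p = 0.647). The sign of such small differences turned with the scaling, and after subtraction of array medians Col1a1 was at -0.02.

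**Figure D2:**
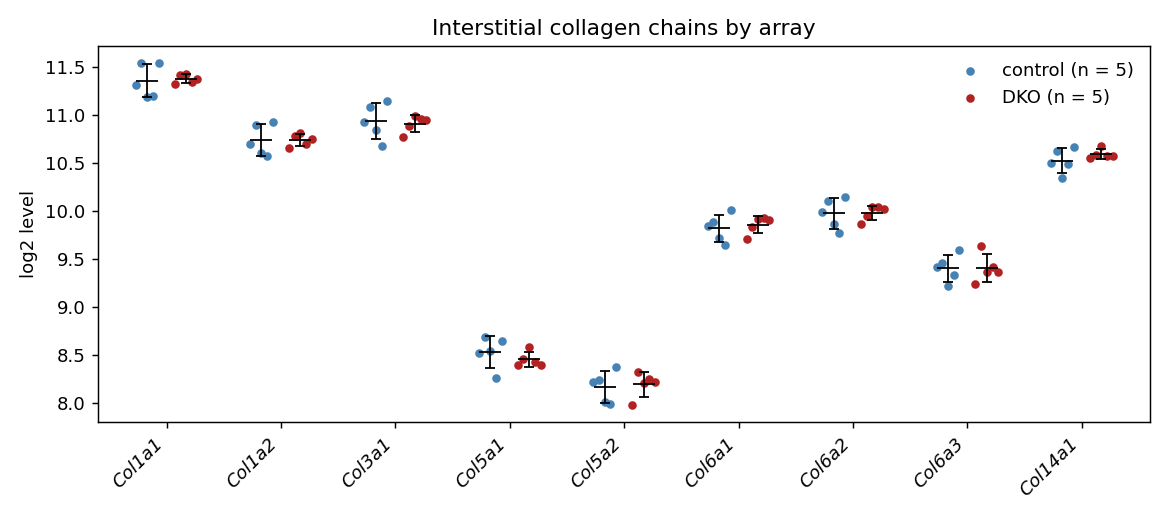
Log2 level (vertical axis) of 9 interstitial collagen chains in each control array (blue, n = 5) and each DKO array (red, n = 5), with the group mean and SD in black. The groups overlap for every chain shown, and in 6 of the 9 all DKO points lie within the control range.

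The 9 interstitial chains of that plot varied together among the controls. Control replicate 5 was the highest control in 7 of them and control replicate 2 in the other two. Control replicate 4 was the lowest control in 6, and control replicate 3 in 3. The SD was larger among controls than among DKO arrays in 8 of the 9, for example 0.17 against 0.05 for Col1a1 and 0.18 against 0.09 for Col3a1. This difference in spread was not tested, and no share over all genes was computed for it. Because the chains varied together, counts over them are not independent observations. The mean of 10 fibroblast and stellate cell markers was also highest among controls in replicate 5 (10.27) and lowest in replicates 4 and 3 (10.05 and 10.06). Control replicate 2, the other high control for the chains, did not share that order, with a marker mean of 10.14 against 10.18 in control replicate 1. Within DKO, replicate 1, where hepatocyte markers were high, held the lowest value in 9 of 9 chains, and it also had the lowest marker mean of its group, 10.10 against 10.19 to 10.27. Between the groups the marker mean was 10.14 ± 0.09 and 10.21 ± 0.07 (SD, n = 5 each), and none of the 10 markers passed the test by limma (1 at an unadjusted p of 0.05, Thy1, 0.31 higher). The part of these cells in the collagen values was not tested.

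The basement membrane class held the one called gene. Type IV chains assemble as α1α1α2 in most basement membranes, and as α3α4α5 or α5α5α6 in selected epithelia. Col4a5, the α5 chain, read 7.24, 7.35, 7.24, 7.34 and 7.55 in control and 7.65, 7.64, 7.60, 7.66 and 7.66 in DKO. The 5 DKO values were nearly equal and all above the highest control, replicate 5, by as little as 0.05. It was the one collagen whose groups did not overlap, a pattern seen with DKO on top in 3.52% of all genes and with control on top in 1.28%, here in no collagen. Col4a5 rose by 0.30 ± 0.06 (SE, n = 5 each; 95% interval 0.17 to 0.44), a 1.23-fold difference (adjusted p = 0.0288). The call ended in 8 of the 10 fits without 1 array (all but those without control replicate 5 or DKO replicate 3), with a highest adjusted p of 0.0791 without control replicate 3, while the change stayed between 0.28 and 0.35. It also ended with array medians subtracted (0.26, adjusted p = 0.0607), with array weights (0.26, 0.0820), with unmoderated variance (0.30, 0.0519) and with the Xist level as a covariate (0.30, 0.0564), the last tried because the gene is X-linked and Xist was high in 3 control and 2 DKO arrays.

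Col4a6, which lies head to head with Col4a5, read 6.83, 6.76, 6.68, 6.62 and 6.80 in control and 6.72, 6.90, 6.86, 6.73 and 6.91 in DKO. The groups overlapped, and the change was 0.09 (-0.05 to 0.22; adjusted p = 0.539). Whether the changes of the neighbours differ was not tested. The α3 and α4 chains, the partners of α5 in the α3α4α5 trimer, were both 0.08 lower in DKO without passing. Col4a3 read 6.78, 7.02, 7.00, 6.85 and 6.89 in control and 6.91, 6.82, 6.97, 6.85 and 6.59 in DKO (adjusted p = 0.648). Col4a4 read 6.84, 6.93, 7.02, 6.80 and 6.94 in control and 6.84, 6.83, 6.92, 6.84 and 6.69 in DKO (adjusted p = 0.553). For both chains DKO replicate 5 lay below every control, and the other DKO values fell inside the control range.

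The common α1 and α2 chains were not called either. Col4a1 read 9.44, 9.43, 9.45, 9.20 and 9.43 in control and 9.28, 9.42, 9.23, 9.39 and 9.22 in DKO, a change of -0.08 (-0.23 to 0.06; adjusted p = 0.578). Control replicate 4 stood apart below 4 nearly equal controls and lay under all 5 DKO values. Col4a2 read 9.24, 9.02, 9.09, 8.86 and 9.19 in control and 9.01, 9.15, 8.98, 9.18 and 9.02 in DKO (-0.01, adjusted p = 0.956), again with its lowest value in control replicate 4. Endothelial cells are a main source of both chains, and the mean of 6 endothelial markers was 9.57 ± 0.10 in control and 9.55 ± 0.10 in DKO (SD, n = 5 each). None of the 6 passed the test by limma (1 at an unadjusted p of 0.05, Pecam1, 0.14 lower).

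Types XV and XVIII carry heparan sulphate or chondroitin sulphate chains and lie at the outer face of basement membranes. Col15a1 read 9.65, 9.39, 9.51, 9.44 and 9.71 in control and 9.35, 9.78, 9.46, 9.72 and 9.63 in DKO (0.05, -0.16 to 0.25; adjusted p = 0.839). Col18a1, whose C-terminal fragment is endostatin, read 8.37, 8.41, 8.35, 8.24 and 8.58 in control and 8.57, 8.34, 8.29, 8.18 and 8.36 in DKO (-0.04, -0.22 to 0.14; adjusted p = 0.841). Values of both genes were interleaved between the groups. Markers of epithelial cells, which also lie on a basement membrane, differed between the groups in both directions. Of 5 duct markers 3 rose (Krt7 by 1.22, Cldn4 by 1.37 and Krt19 by 0.41), and the mean of the 5 was 8.99 to 9.21 in control and 9.60 to 9.86 in DKO. The duct marker Sox9, a transcription factor gene, was 0.26 lower without passing (adjusted p = 0.149), with DKO values of 10.16 to 10.59 below controls of 10.67 to 10.83. Cftr, the chloride channel gene of ducts, was 0.50 higher, also without passing (adjusted p = 0.113). Of 6 acinar markers 1 fell, the transcription factor gene Rbpjl (-0.45, adjusted p = 0.0225), and all 6 had changes below 0. The acinar mean was 11.85 to 12.23 in control and 11.42 to 11.91 in DKO. The part of duct and acinar cells in the change of Col4a5 was not tested.

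**Figure D3:**
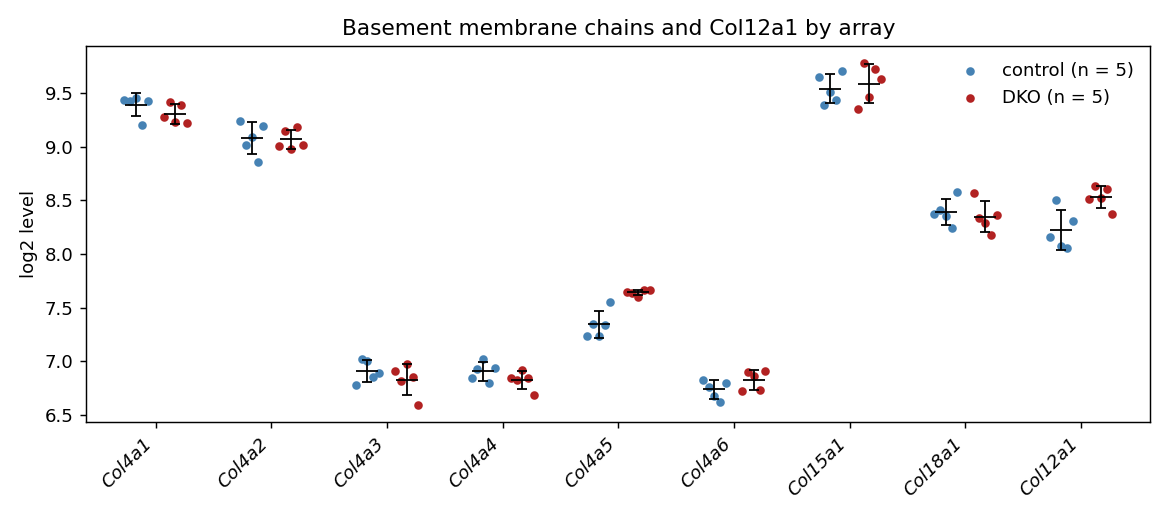
Log2 level (vertical axis) of the 6 type IV chains, Col15a1, Col18a1 and the fibril-associated Col12a1 in each control array (blue, n = 5) and DKO array (red, n = 5), with group mean and SD in black. The groups are separate for Col4a5, where DKO points lie at 7.60 to 7.66 and controls at 7.24 to 7.55, and overlap for the others.

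Of the 25 other collagens none was called in either direction (3 at an unadjusted p of 0.05 in limma, Col12a1, Col7a1 and Col23a1). Col12a1 is a fibril-associated chain that bridges type I fibrils in tissue under load. It read 8.16, 8.50, 8.07, 8.06 and 8.31 in control and 8.51, 8.63, 8.52, 8.61 and 8.37 in DKO. Of the DKO arrays, replicate 5 alone fell among the controls. The change was 0.31 ± 0.09 (SE, n = 5 each; 0.11 to 0.50) and did not pass (adjusted p = 0.113). It passed in the fit without control replicate 2, its highest control (0.38, adjusted p = 0.0379), and in none of the other 9 fits that left out 1 array. Thus the change of Col12a1 was as large as that of Col4a5, with a wider spread between arrays.

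Col7a1, the anchoring fibril chain that fastens stratified epithelia to the tissue below, read 7.98, 8.20, 8.31, 7.96 and 8.06 in control and 7.97, 7.90, 8.11, 7.80 and 7.74 in DKO. It had the most negative change of the family, -0.20 (-0.39 to -0.01; adjusted p = 0.323). The transmembrane collagen gene Col23a1 read 7.65, 7.58, 7.80, 7.61 and 7.67 in control and 7.58, 7.58, 7.60, 7.44 and 7.27 in DKO (-0.16, adjusted p = 0.327). In the fibrillar class Col11a2, a chain of cartilage fibrils, read 7.29, 7.53, 7.59, 7.42 and 7.46 in control and 7.37, 7.37, 7.36, 7.17 and 7.08 in DKO (-0.18, adjusted p = 0.304). In each of these genes DKO replicates 4 and 5 held the lowest values of the 10 arrays.

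That order recurred in the family. DKO replicates 4 and 5 were the lowest 2 of the 10 arrays in 16 of 44 collagens (36.4%), against 12.6% of all genes. The order went with level. It held for 11 of the 21 collagens below the median level of all genes (52.4%). Of all genes below that level 23.2% had it, and of olfactory receptor genes 22.7%. At or above that level it held for 5 of the 23 collagens (21.7%). Of the 2513 genes with this order among all 19938, 2313 lay below the median level, so it was rare among the 9970 genes at or above it. Collagens thus had the order more often than all genes on both sides of the median level. The 16 were Col2a1, Col5a3, Col6a4, Col7a1, Col9a1, Col9a3, Col10a1, Col11a2, Col13a1, Col17a1, Col20a1, Col22a1, Col23a1, Col24a1, Col25a1 and Col26a1. Col2a1, the fibril chain of cartilage, is an example, with 7.76, 8.00, 8.03, 7.86 and 7.94 in control and 7.86, 7.83, 7.91, 7.59 and 7.58 in DKO (-0.16, adjusted p = 0.387). Col9a3, a chain of type IX that decorates type II fibrils, read 7.84, 8.16, 8.13, 7.97 and 8.01 in control and 7.93, 7.96, 7.99, 7.74 and 7.54 in DKO (-0.19, adjusted p = 0.376). In both genes DKO replicates 1 to 3 lay inside the control range.

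Genes below the median level other than collagens were also low in DKO replicates 4 and 5. The 21 collagens below the median level of all genes lay at a median of -0.18 and -0.32 from their control means in DKO replicates 4 and 5, and between -0.05 and 0.05 in DKO replicates 1 to 3. All 9968 genes below the median level lay at -0.07 and -0.12 in the same arrays. So did 1027 olfactory receptor genes, a family with little known expression in pancreas, at -0.08 and -0.11. Their levels had a median of 4.37 and a 95th percentile of 6.12. The 23 collagens at or above the median level lay at -0.04 and -0.03 there, while all 9970 genes at or above it lay at 0.05 and 0.09. Without DKO replicates 4 and 5, a fit added after seeing the data, the median change of the family was -0.010 in place of -0.070. The changes of Col11a2, Col7a1, Col23a1, Col2a1 and Col9a3 were then -0.09, -0.11, -0.07, -0.05 and -0.07. In each of these genes the arrays left out held the lowest values, so a less negative change was fixed in advance and shows nothing further. The part of this shift of dim genes in the collagen values was not tested further.

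**Figure D4:**
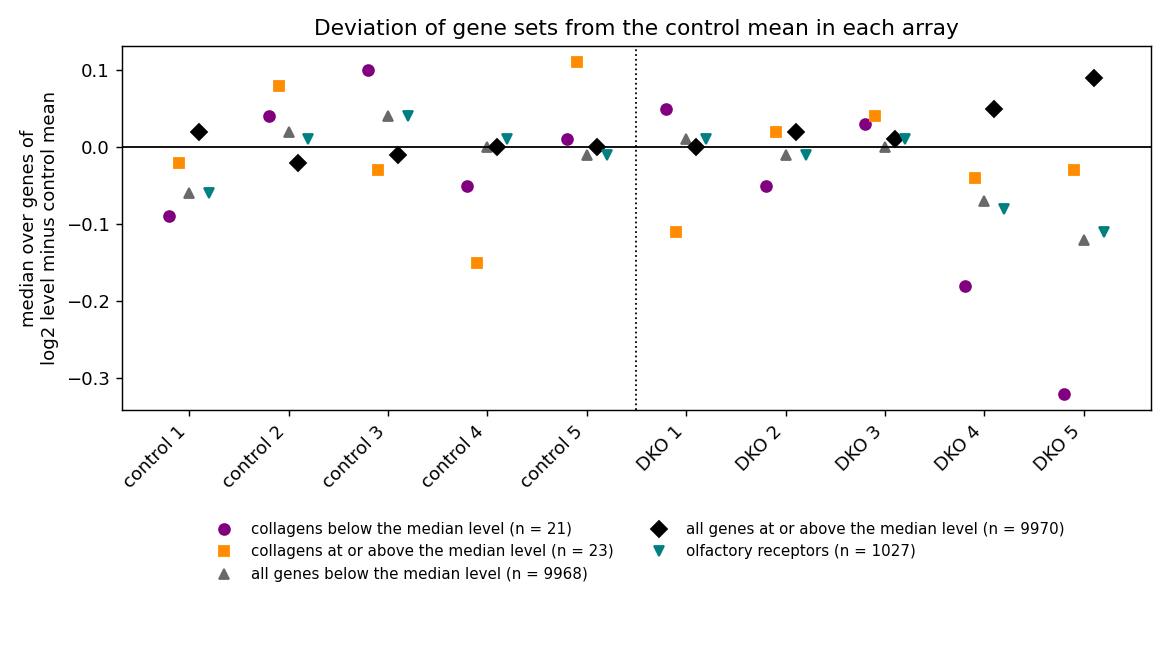
Median over genes of the log2 level minus the control mean of the gene (vertical axis), in each of the 10 arrays, for collagens below (n = 21) and at or above (n = 23) the median level of all genes, all genes below it (n = 9968), all genes at or above it (n = 9970) and olfactory receptors (n = 1027). In DKO 4 and DKO 5 the collagens below the median level stand at -0.18 and -0.32, with all dim genes at -0.07 and -0.12.

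The remaining chains had changes between -0.17 and 0.05 without a call. Col22a1, a fibril-associated chain of tissue junctions, read 7.24, 7.43, 7.58, 7.44 and 7.40 in control and 7.36, 7.35, 7.39, 7.12 and 7.06 in DKO (-0.16, adjusted p = 0.398). Col9a2, of the cartilage type IX, read 7.79, 8.10, 8.12, 7.95 and 7.92 in control and 7.86, 7.87, 7.95, 7.83 and 7.50 in DKO (-0.17, adjusted p = 0.418), with DKO replicate 5 below all other arrays. The third chain of that type, Col9a1, had a change of -0.15. The network chain Col10a1 of hypertrophic cartilage was 0.16 lower, with the widest interval of the family (-0.42 to 0.09). The network chains of type VIII, Col8a1 and Col8a2, had changes of 0.05 and -0.11. The transmembrane chains Col13a1, Col17a1 and Col25a1 had changes of -0.08, -0.05 and -0.15. Of the lesser type VI chains, Col6a4, Col6a5 and Col6a6 had changes of -0.14, -0.08 and -0.05. Col6a5 and Col6a6 each had a second cluster, whose group means were 7.46 and 7.54 for Col6a5 and 8.34 and 8.30 for Col6a6, control before DKO. The second Col6a5 cluster thus differed in the other direction from the one used (7.63 and 7.56). The minor fibrillar chains Col11a1, Col24a1 and Col27a1 had changes of 0.03, -0.08 and -0.03, and Col16a1, Col19a1, Col20a1, Col26a1 and Col28a1 lay between -0.16 and 0.00.

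Genes that act on collagen were examined from a list of 65, of which 60 were measured. Of these 2 rose and none fell, a share of 3.33% against 2.08% of all genes called higher. At an unadjusted p of 0.05 in the same limma fit 11 of the 60 were higher and 1 lower, against 9.18% and 5.66% of all genes. Groups did not overlap for 5 with DKO above control and for 1 with DKO below, against 3.52% and 1.28% of all genes. Timp3, a matrix-bound inhibitor of metalloproteinases, read 10.29, 10.12, 10.09, 9.96 and 10.38 in control and 10.79, 10.53, 10.58, 10.75 and 10.72 in DKO. Every DKO value was above every control. Timp3 rose by 0.51 ± 0.09 (SE, n = 5 each; adjusted p = 0.0113), and the call held without any 1 array (highest adjusted p = 0.0381). Ddr1, a receptor tyrosine kinase of epithelia that binds collagen, read 9.37, 9.32, 9.29, 9.42 and 9.24 in control and 9.73, 9.53, 9.55, 9.72 and 9.70 in DKO, again with separate groups. Ddr1 rose by 0.32 ± 0.06 (SE, n = 5 each; adjusted p = 0.0166), and its call ended without control replicate 3 (0.0517). The calls of both ended without control replicate 2 and DKO replicate 4 together (0.0919 for Timp3, 0.120 for Ddr1), at changes of 0.48 and 0.30.

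No other gene of the list was called. Among collagen receptors beside Ddr1, the mesenchymal Ddr2 was 0.02 lower (adjusted p = 0.926), the integrin subunit Itgb1 0.13 higher (0.187) with groups that did not overlap, and Itga2 0.26 higher (0.468). Of 15 prolyl and lysyl modification genes none passed in limma (4 higher and 1 lower at an unadjusted p of 0.05). P3h2, a prolyl 3-hydroxylase that acts on type IV collagen, was 0.42 higher (0.18 to 0.65; adjusted p = 0.0722), with all 5 DKO values (8.02 to 8.21) above the controls (7.47 to 7.99). It passed without control replicate 4 (0.0284), with array weights (0.0339), with the Xist covariate (0.0404) and without the dimmest 50% of genes (0.0446). P4ha3, a prolyl 4-hydroxylase subunit, was 0.37 higher (adjusted p = 0.125), and P4hb, the shared subunit that is also a disulphide isomerase, 0.13 lower (0.244), with DKO values of 12.12 to 12.31 just below controls of 12.32 to 12.39.

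Of 11 folding and export genes none passed in limma (2 higher and none lower at an unadjusted p of 0.05). The collagen chaperone gene Serpinh1 was 0.08 higher (-0.11 to 0.27; adjusted p = 0.677), Mia2, a gene of export from the endoplasmic reticulum, 0.29 higher (0.129), Sec23a 0.17 higher (0.319) and the transcription factor gene Creb3l1 0.11 lower (0.421). Of 9 propeptide removal genes none passed in limma (1 higher and none lower at an unadjusted p of 0.05). Pcolce, which enhances removal of the C-propeptide, was 0.24 higher (0.10 to 0.38; adjusted p = 0.0919), with DKO values of 10.99 to 11.24 above controls of 10.77 to 10.95. Mep1a and Adamts14 had changes of -0.23 and -0.11.

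Among 5 crosslinking genes none passed in limma (0 at an unadjusted p of 0.05). Loxl1, Tgm2 and Loxl4 had changes of 0.19, 0.18 and 0.14 (adjusted p = 0.344, 0.481 and 0.439), and Lox, the main lysyl oxidase, read 9.27 to 9.83 in control and 9.54 to 9.85 in DKO. Beside Timp3, the degradation group held Timp1, which read 7.52, 7.21, 6.56, 6.76 and 7.24 in control and 7.50, 8.90, 6.97, 8.17 and 7.41 in DKO. DKO replicates 2 and 4 were high and the groups overlapped, so that its difference of 0.73 ± 0.33 (SE, n = 5 each) did not pass (adjusted p = 0.329). The collagenase gene Mmp14 was 0.13 higher (adjusted p = 0.557), and the gelatinase gene Mmp2 0.05 higher (0.739).

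**Figure D5:**
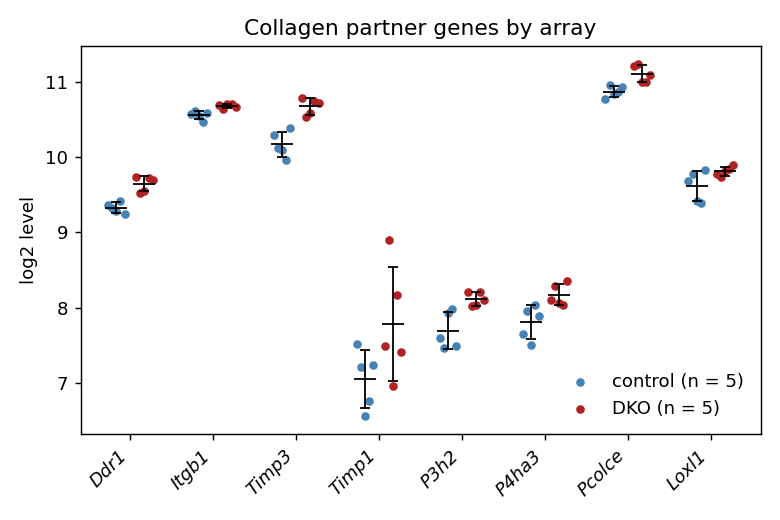
Log2 level (vertical axis) of 8 genes that act on collagen in each control array (blue, n = 5) and DKO array (red, n = 5), with group mean and SD in black. Groups are separate for Ddr1, Itgb1, Timp3, P3h2 and Pcolce and overlap for Timp1, P4ha3 and Loxl1. The first 5 are all of the 60 measured genes with every DKO value above every control. Ddr1 and Timp3 passed the test.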

How the data were processed

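The authors deposited log2 levels, 1 per transcript cluster and array, made with Affymetrix Expression Console, per the submitters' processing notes. For the software version, background correction, summarization and scaling, nothing was given in the sources used here. Deposited log2 values (2.79 to 13.94) were used without further normalization or filter. Of 35556 clusters 21789 had 1 gene symbol, 1621 several and 12146 none in the platform annotation. Gene identifiers of 21698 of the 21789 matched RefSeq (GRCm38.p6), used for current names. The brightest cluster over all 10 arrays stood for each gene, leaving 19938. DKO was set against control by limma 3.58.1 (R 4.3.3; lmFit, eBayes), two-sided, Benjamini-Hochberg over all genes, on 10.96 degrees of freedom. The fit was tested on simulated data. Arrays of 5 per group limit the precision, and the median SE of a collagen change was 0.080. The files name no genome build.

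The members and lists were chosen with earlier results of these data known. All collagens are named. Those given by array were the called collagen, the 10 with the smallest p, the 6 brightest, and the chains of types I, III, IV and V with Col15a1 and Col18a1. Of each partner list the called genes and the 3 with the smallest p are named. Others, Col6a3, Ddr2, Serpinh1, Lox, Mmp2 and the markers among them, were chosen after their values were seen. Clusters with several or no symbols were left out. Comparing levels of different genes is not meant, since probes differ in response. Alternatives, whose effects are in the closing section, were other scaling (quantile normalization, array medians subtracted), filters on dim genes, other variance models, array weights, the mean of a gene's clusters, the replicate number as a block, Xist as a covariate, and fits without 1 array or a pair. The fit without DKO replicates 4 and 5 was added after seeing the data.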

Additional observations from a re-analysis of the deposited data

Results flagged for a closer look

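In 124 groups of 5 arrays (62 genes, control and DKO), 6 held an array far from the others, where chance gives about 1 in 20. Control replicate 4 stood low for Col4a1 (9.20, the next at 9.43). DKO replicate 5 stood low for Col9a2 (7.50, the next at 7.83) and for Col28a1 (6.32, the next at 6.51). DKO replicate 3 stood high for Col14a1 (10.68, the next at 10.58), and control replicate 3 for Col26a1 (7.82, the next at 7.62). DKO replicate 2 stood high for Sec23a, at 9.97 with the next at 9.76.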

How the results depend on the processing

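The count of collagens higher in DKO was 1 (Col4a5). It was 0 with array medians subtracted, without the dimmest 50% of genes (which removes Col4a5), with unmoderated variance, array weights, the replicate block, the Xist covariate, an adjusted p of 0.01, without control replicate 2 and DKO replicate 4 together, and without DKO replicates 4 and 5 together, the last chosen after seeing the data. Leaving out 1 array gave 0 to 1 (Col12a1 in place of Col4a5 without control replicate 2). No collagen was called lower in any of these fits. Genes that act on collagen gave 1 to 3 higher on leaving out 1 array, 1 with the replicate block, 4 at an adjusted p of 0.10, and 0 at 0.01 and without either pair of arrays. Of all genes 487 were called, 260 to 433 on leaving out 1 array, 298 with unmoderated variance, 178 with the replicate block, 163 and 826 at adjusted p of 0.01 and 0.10, and 151 without each pair in turn. Same-numbered arrays did not deviate together (r -0.27 to 0.29), so the numbers were taken as names. With the replicate block Col4a5 had an adjusted p of 0.106 and Ddr1 of 0.0752. Medians of the collagen classes moved by less than the spread between replicates under every alternative, but 0 to 12 of the 44 collagens changed sign, none of them called. The 5 arrays per group limit what is detectable, and the dimmest collagens may be compressed by background, which was not tested.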
